A study of Mus musculus with 10 samples.

Results

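The sequences described here are 8-base DNA words that carry the half-site of the C/EBP transcription factors, TTGC, followed by adenine and then by A, C or G. They were taken from the 32896 8-mers of protein binding microarrays, where an 8-mer and its reverse complement count as 1, by sequence alone. Words with a CG dinucleotide (CpG) or with TTGCAT on either strand were left out, which kept 109 of the 32896 8-mers, or 0.331%. The array carries 40330 double-stranded probes with a variable region of 35 bases in a DeBruijn design, so that short words recur in many surroundings. All of this DNA is synthetic and has no position in a genome. GST-tagged bZIP domains of mouse proteins, made in a cell-free system, were bound to the probes and read as Cy5 fluorescence.

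The 10 arrays fall into 5 groups of 2. CEBPB(V285A) and CREB1(A297V) were each bound to arrays that the methyltransferase M.SssI had treated for 3 h, which methylates the cytosine of CpG, and each was also bound to untreated arrays. The last group is unmutated CREB1 on untreated arrays. Each protein is the isolated DNA-binding domain, and the substitutions were introduced into the plasmid constructs by site-directed mutagenesis. Arrays of unmutated CEBPB, and of CREB1 on methylated DNA, were not analysed here. The labels do not state whether the 2 arrays of a group had their own protein preparation, so every p-value reflects spread from array to array that may be technical.

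Proteins of the bZIP family bind DNA as dimers, with a basic region of each monomer reading a half-site in the major groove. C/EBP proteins, regulators of fat, liver and myeloid genes, favour a palindrome of TTGC and its complement GCAA, and heterodimers of C/EBP and ATF proteins bind a composite site that begins with TTGCAT. CREB1, which mediates transcription in response to cyclic AMP, reads TGAC half-sites joined around a central CpG. An adenine after TTGC keeps the first C/EBP half-site intact while the centre loses its CpG.

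The sequences below were chosen because the results turn on them. The first 3 begin with TTGCA, end in AA and differ only at base 6, and the next 5 are members on which the proteins differed or were all high. Capitals mark the half-site, its adenine and base 6.
Base 6 is A: TTGCAAaa
Base 6 is C: TTGCACaa
Base 6 is G: TTGCAGaa
Base 6 is C, A before the half-site: aTTGCACa
Base 6 is C, ending in AC: TTGCACac
Base 6 is C, ending in CA: TTGCACca
Base 6 is C, ending in CC: TTGCACcc
Self-complementary, with G before the half-site: gTTGCAAc
The next 3 are no members and differ from TTGCACaa by 1 base, shown in capitals, which gives the C/EBP palindrome, the excluded T form and a form with a changed half-site.
Adenine changed to G: ttgcGcaa
Base 6 changed to T: ttgcaTaa
Half-site changed to TTAC: ttAcacaa
The last 2 are whole variable regions of probes that hold TTGCACaa, in capitals and read on the strand that the array lists, and they were the brightest and the dimmest of its 36 probes with unmethylated CEBPB(V285A).
Brightest probe: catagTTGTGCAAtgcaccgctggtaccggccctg
Dimmest probe: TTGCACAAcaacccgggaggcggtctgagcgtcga

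Binding is given as a Z-score, the median log2 signal of all probes that hold an 8-mer, centred on the median of all 8-mers of the array and divided by their robust SD. A Z-score of 0 is therefore the level of the median 8-mer. Each member lay on 17 to 39 probes, with a median of 34, and all 109 were scored and tested. The members occupied 1431 probes, of which 1225 held more than 1 member and 180 also held another bZIP core (TGACG, or TTACG, or TTGCG, or the excluded form TTGCAT). Overlapping members share probes and are not replicates of each other. Median spot signal was 345 to 1857 per array and replicate arrays correlated at 0.872 to 0.973 over all 8-mers. Arrays of CREB1 and CREB1(A297V) on unmethylated DNA share an array identifier, both methylated groups share another, and unmethylated CEBPB(V285A) has its own. On the methylated CREB1(A297V) arrays the probes lie at other positions than on all other arrays. The range was narrowest on unmethylated CREB1(A297V) arrays, where the strongest 8-mer stood 2.79 and 2.68 log2 units above the median, against 4.73 to 6.05 on the others.

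As a group the members had low median Z-scores with both mutants and a median near 0 with CREB1. The median Z-score of the 109 members was 0.724 and 0.676 on the methylated CEBPB(V285A) arrays and 0.643 and 0.588 on the methylated CREB1(A297V) arrays. On unmethylated arrays it was 0.518 and 0.427 with CEBPB(V285A), 0.333 and 0.312 with CREB1(A297V), and -0.0965 and -0.0854 with CREB1. The mutants' medians lay above 0 and CREB1's just below it, and the CREB1 value is the only one whose sign depends on the scoring (0.0995 without probes that hold another bZIP core, 0.0232 in the authors' deposited scores).

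Few members reached a Z-score of 2. On methylated DNA 12 members did so with CEBPB(V285A), against a background of 6.87% of all 8-mers and 6.01% of those without CpG. With methylated CREB1(A297V) 11 did so, against 5.92% of all and 5.94% of those without CpG. On unmethylated DNA 7 members reached it with CEBPB(V285A) (background 6.92%, and 4.51% without CpG), 5 with CREB1(A297V) (4.71% and 5.30%) and 1 with CREB1 (6.10% and 3.08%). The member shares were 11.01% and 10.1% on the methylated arrays of CEBPB(V285A) and CREB1(A297V), and 6.42%, 4.59% and 0.917% on the unmethylated arrays of CEBPB(V285A), CREB1(A297V) and CREB1. Unmethylated shares of both mutants lay near their backgrounds, and that of CREB1 lay below.

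With CEBPB(V285A) the level differed with what follows the half-site. On unmethylated DNA its median Z-score was 0.473 over the 109 members, against 1.97 over 46 8-mers with TTGCAT, 1.19 over 256 with TTGCG and 0.0457 over 418 with TTGCC or TTGCT. On methylated DNA the same 4 medians were 0.700, 3.18, 1.25 and 0.131. The members thus lay between the C/EBP-type words and the words with C or T after the half-site. With CREB1(A297V) the members had medians of 0.615 on methylated and 0.323 on unmethylated DNA, the TTGCAT words 1.19 and 0.502, and the TTGCG words 0.431 and 0.204. The TTGCG words thus lay below the members with CREB1(A297V) and above them with CEBPB(V285A). For CREB1 the members, at -0.0909, stood below the TTGCAT words at 0.325 and the TTGCG words at 0.501, and close to the TTGCC and TTGCT words at -0.148. These lists are described by their medians, with no test between them.

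Base 6 ordered the members in the same way for every protein, with A highest, C next and G lowest. The 25 members with A had median Z-scores of 1.64 and 1.59 with methylated CEBPB(V285A) and CREB1(A297V), and of 1.43, 1.16 and 0.67 with unmethylated CEBPB(V285A), CREB1(A297V) and CREB1. In the same order of groups, the 38 members with C had medians of 0.66, 0.81, 0.51, 0.56 and -0.044, and the 46 with G had 0.22, -0.059, -0.076, -0.26 and -0.51. With A at base 6 the 6 bases read TTGCAA on both strands, so those 25 members carry the half-site on both strands, in overlap. The C and G members carry it on 1 strand.

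A also stood first in most fixed surroundings. In 38 surroundings where A, C and G at base 6 all give a member, A gave the highest mean Z-score in 27 with methylated CEBPB(V285A) and in 34 with methylated CREB1(A297V). On unmethylated arrays A was highest in 31 with CEBPB(V285A), 34 with CREB1(A297V) and 31 with CREB1. When T, which makes the excluded TTGCAT, was compared as well, the proteins parted. T was highest in 29 surroundings with methylated and 25 with unmethylated CEBPB(V285A). A was highest in 28 with methylated and 28 with unmethylated CREB1(A297V), and in 22 with CREB1. These counts run over overlapping words, which share probes, and carry no test. TTGCAA is its own reverse complement, so the same A word serves for different surroundings, as in TTGCAnaa and ttTTGCAn (n for base 6). The 38 surroundings thus draw on no more than the 25 members with A, and some A values are counted repeatedly.

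The base before the half-site was compared over the 58 members with C or G at base 6 in which the word holds that base. Unmethylated CEBPB(V285A) had a median Z-score of 0.87 with A there, 0.29 with G, -0.086 with T and -0.71 with C. For CREB1(A297V) on unmethylated DNA the medians were 0.48 with A, 0.30 with G, 0.35 with T and -0.71 with C. For CREB1 they were 0.096 with A, -0.22 with G, -0.062 with T and -1.10 with C. A stood highest and C lowest in all 3, and C also stood lowest on methylated DNA, at 0.066 with CEBPB(V285A) and 0.086 with CREB1(A297V).

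With CEBPB(V285A) the member whose last 3 bases match the C/EBP palindrome stood apart. In the 41 members that begin with the half-site, bases 6 to 8 were compared with CAA, the end of the second half-site GCAA, whose G every member lacks at base 5. With unmethylated CEBPB(V285A) the median Z-score was 0.85 for the 16 members with no match, 0.40 for the 17 with 1 match and 0.92 for the 7 with 2 matches. The single member with all 3 matches, TTGCACaa, stood at 4.46, and the highest of those with 2 matches at 1.83. With unmethylated CREB1(A297V) the same member stood at -0.082, below the median of 0.70 of those with 2 matches. With methylated CREB1(A297V) it stood at 1.78, above their median of 1.51 and below the highest of them at 3.40.

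TTGCACaa was the member CEBPB(V285A) bound most. Its Z-scores were 7.06 and 6.11 on the 2 methylated CEBPB(V285A) arrays and 1.41 and 2.15 on those of CREB1(A297V). On unmethylated arrays they were 4.62 and 4.30 with CEBPB(V285A), 0.028 and -0.19 with CREB1(A297V) and -0.46 and -0.45 with CREB1. All 4 CEBPB(V285A) arrays lay above every array of the other proteins. In signal, the word's probes stood at 3.25 times the array median with methylated CEBPB(V285A) and at 1.87 times with unmethylated CEBPB(V285A), background light included.

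The other 2 members that end in AA separated the mutants less. TTGCAAaa had Z-scores of 2.92 and 2.48 with methylated CEBPB(V285A), 2.87 and 3.55 with methylated CREB1(A297V), 1.67 and 1.99 with unmethylated CEBPB(V285A), 1.52 and 1.481 with unmethylated CREB1(A297V) and 0.27 and 0.50 with CREB1. TTGCAGaa had 1.71 and 1.59 with methylated CEBPB(V285A) and 0.96 and 0.81 with methylated CREB1(A297V). Unmethylated, it had 0.66 and 0.20 with CEBPB(V285A), -0.62 and -0.52 with CREB1(A297V) and -0.98 and -1.49 with CREB1. Every mutant array lay above both CREB1 arrays on either word.

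The single-base variants of TTGCACaa place it in its neighbourhood. With unmethylated CEBPB(V285A), ttgcGcaa had a Z-score of 16.2 ± 0.87, ttgcaTaa 14.3 ± 0.26 and ttAcacaa 6.41 ± 0.42 (SD, n = 2 arrays), against 4.46 ± 0.23 for TTGCACaa itself. These 3 were the only ones of its 24 variants with a higher mean, and the remaining 21 lay between -0.84 and 2.10. Unmethylated CREB1(A297V) had 2.12 ± 1.47, 2.83 ± 0.78 and 5.71 ± 2.36 on the same 3 variants, against -0.082 ± 0.16 on TTGCACaa. Unmethylated CREB1 had 2.36 ± 0.37, 1.58 ± 0.20 and 1.482 ± 0.16, against -0.46 ± 0.011. The TTAC variant thus had the highest mean of the 3 for CREB1(A297V) and the lowest for CEBPB(V285A), with the replicate arrays of CREB1(A297V) far apart on it.

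The level of TTGCACaa differed with the bases outside the word. Its 36 probes ranged from -0.90 to 3.24 log2 units around the array median with unmethylated CEBPB(V285A), and 15 of them stood at 1 or more. With CREB1(A297V) and CREB1 on unmethylated DNA 0 of the 36 reached 1, the highest being 0.53 and 0.54. Leaving out 3 probes with another bZIP core, the median log2 level on the 2 arrays was 3.82 and 3.55 with methylated and 2.18 and 2.02 with unmethylated CEBPB(V285A) where A stood before the word (7 probes). With G before it (8 probes) the levels were 1.74 and 1.62 methylated and 0.84 and 1.01 unmethylated, and with C (8 probes) 1.59 and 1.46 methylated and 0.65 and 0.68 unmethylated. With T (9 probes) they were lowest, 0.77 and 0.86 methylated and 0.34 and 0.42 unmethylated. The A group stood above the other 3 on all 4 arrays.

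After the word, T gave 3.36 and 2.99 with methylated and 2.13 and 2.04 with unmethylated CEBPB(V285A) (8 probes). C gave 1.65 and 1.77 methylated and 0.95 and 1.01 unmethylated (8 probes). G gave 1.11 and 0.76 methylated and 0.38 and 0.34 unmethylated (7 probes), and A gave 0.89 and 0.76 methylated and 0.46 and 0.47 unmethylated (8 probes). The high bases, A before and T after, are the complements of each other, and both groups of probes stood above the other 6 on every CEBPB(V285A) array. For CREB1(A297V) all 8 settings lay between -0.13 and 0.25 on unmethylated DNA, and for CREB1 between -0.19 and 0.028.

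Position on the probe also moved with the signal. In a split chosen after the values were seen, the 5 probes in which the word starts within the first 3 bases of the variable region had median log2 levels of 0.61 and -0.38 with methylated and -0.24 and 0.046 with unmethylated CEBPB(V285A). The other 31 had 1.83 and 1.73 methylated and 1.02 and 1.00 unmethylated. The same 5 probes were also low on unmethylated DNA with CREB1(A297V), at -0.37 against 0.073 for the other 31, and with CREB1, at -0.37 against -0.022. All 3 proteins thus gave their lower median there on unmethylated DNA.

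With A before the half-site, aTTGCACa was high with both mutants. Its Z-scores were 3.75 and 4.16 with methylated CEBPB(V285A), 4.28 and 4.71 with methylated CREB1(A297V), 2.88 and 3.05 with unmethylated CEBPB(V285A), 2.38 and 2.46 with unmethylated CREB1(A297V) and 0.24 and 0.66 with CREB1. Every array of the mutants lay above both CREB1 arrays. The 9-base words inside it differed between the mutants. Followed by A, which makes it overlap TTGCACaa (7 probes), its median log2 level was 3.68 with CEBPB(V285A) and 0.61 with CREB1(A297V) on methylated DNA, and 2.10 and 0.25 on unmethylated DNA. Followed by C (8 probes) it was 0.80 with CEBPB(V285A) and 1.39 with CREB1(A297V) on methylated DNA, and 0.50 and 0.60 on unmethylated DNA.

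The word ending in AC, TTGCACac, had the 2 mutants in the opposite order from TTGCACaa, but was not the highest member with CREB1(A297V). Its Z-scores were 0.62 and 0.75 with methylated CEBPB(V285A), 3.25 and 3.55 with methylated CREB1(A297V), 1.10 and 0.73 with unmethylated CEBPB(V285A), 1.74 and 3.28 with unmethylated CREB1(A297V) and 0.57 and 0.94 with CREB1. CREB1(A297V) thus lay above CEBPB(V285A) on both kinds of DNA, though its unmethylated arrays were far apart. Among A members, aTTGCAAa reached 3.07 and 3.46 with methylated and 1.95 and 3.26 with unmethylated CREB1(A297V). With unmethylated CEBPB(V285A) it stood at 2.09 and 2.13 and with CREB1 at 0.83 and 0.72. TTGCAAca was high with both mutants, at 3.44 and 3.59 with CEBPB(V285A) and 2.87 and 3.32 with CREB1(A297V) on methylated DNA. On unmethylated DNA it had 2.81 and 2.77 with CEBPB(V285A), 1.49 and 3.13 with CREB1(A297V) and 1.41 and 1.39 with CREB1.

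CREB1 itself bound no member strongly. Its highest was gTTGCAAc, at 2.04 and 1.96, followed by TTGCAAat at 1.98 and 1.24, cTTGCAAc at 1.75 and 1.40, TTGCAAca at 1.41 and 1.39 and TTGCAGtc at 1.34 and 0.93. Of these 5, 4 have A at base 6. gTTGCAAc stood at 2.56 and 2.42 with unmethylated CEBPB(V285A) and 2.23 and 2.42 with unmethylated CREB1(A297V). All 6 unmethylated arrays thus lay near 2 or above, but part of the probes of gTTGCAAc also hold another bZIP core. The rest were split by the base before the word on the strand that the array lists, a side that a self-complementary word does not set. There were 3, 2, 1 and 3 probes with A, C, G and T there. In that order the median log2 levels were 0.046, 0.17, 0.49 and 0.0047 with CREB1. They were 0.019, 0.083, -0.10 and 0.50 with unmethylated CREB1(A297V), and 0.30, 0.40, 1.05 and 0.65 with unmethylated CEBPB(V285A).

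CEBPB(V285A) bound part of the members more strongly than CREB1 on unmethylated DNA. This comparison asks where the mutant's preferences part from those of CREB1. In limma's moderated test with Benjamini-Hochberg adjustment over all 32896 8-mers, 27 of the 109 members were higher and 1 was lower at an adjusted p below 0.05. The background was 3.67% of all 8-mers higher and 2.53% lower, and 4.17% and 2.44% among those without CpG, so 24.8% of members higher stood above it. The median difference of the members was 0.532 Z units, against 0.00563 over all 8-mers. Calls were spread over base 6: 7 of 25 with A, 9 of 38 with C and 11 of 46 with G were higher.

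The largest differences belonged to words around TTGCAC and TTGCAG. TTGCACaa was higher by 4.92 (SE 0.41, adjusted p = 2.27e-06) and aTTGCACa by 2.51 (SE 0.41, adjusted p = 0.00157). Then came aTTGCAGa, with Z-scores of 0.50 and 0.28 with CEBPB(V285A) against -1.31 and -1.61 with CREB1, a difference of 1.84 (SE 0.27, adjusted p = 0.000588). taTTGCAG had 1.15 and 0.68 against -0.94 and -0.68, a difference of 1.73 (SE 0.29, adjusted p = 0.00178), and TTGCAGaa differed by 1.66 (SE 0.26, adjusted p = 0.00113). On these 3 words with G at base 6, both CREB1 arrays lay below the array median. The 1 lower member was TTGCACcc, at -1.19 and -1.06 with CEBPB(V285A) against -0.11 and -0.18 with CREB1, a difference of -0.98 (SE 0.22, adjusted p = 0.0131). Of the 28 calls, 4 held without each array in turn (TTGCACaa, aTTGCACa, aTTGCAGa and TTGCAGaa), while TTGCACcc lost its call without 3 arrays and taTTGCAG without 1. The count was 4 and 6 without unmethylated CEBPB(V285A) replicates 1 and 2, and 12 and 16 without CREB1 replicates 1 and 2. It was 18 when either methylated CREB1(A297V) array was left out, which enter the fit only through the shared estimate of spread. Protein and array identifier cannot be told apart in this comparison.

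CREB1(A297V) also bound a share of the members more strongly than CREB1. Of the 109 members, 21 were higher and 0 lower by limma, against a background of 8.13% higher and 10.8% lower over all 8-mers and of 11.4% and 4.24% among those without CpG. At an unadjusted p below 0.05 there were 43 higher and 2 lower, against 15.5% and 16.9% of all 8-mers and 20.9% and 8.58% of those without CpG. The median difference was 0.450 Z units for members, 0.0221 for all 8-mers and 0.155 for those without CpG. Per base 6, 7 members with A, 7 with C and 7 with G were higher.

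The 5 largest differences lay in words with A before the half-site or TTGCACa. They were 1.96 (SE 0.41, adjusted p = 0.00239) for aTTGCACa, 1.83 (SE 0.41, adjusted p = 0.00422) for aTTGCAAa, 1.80 (SE 0.40, adjusted p = 0.00404) for aTTGCAAt, 1.76 (SE 0.41, adjusted p = 0.00545) for TTGCACac and 1.38 (SE 0.31, adjusted p = 0.00467) for TTGCACat. aTTGCAAt had Z-scores of 1.20 and 2.14 with CREB1(A297V) against 0.16 and -0.41 with CREB1, and TTGCACat had 1.14 and 1.75 against -0.083 and 0.21. In all 5 the arrays of the proteins did not overlap, which largely follows from their choice as the largest called differences. The SD of the 2 CREB1(A297V) arrays reached 1.09 on TTGCACac. The SE and p-values rest on a spread shared by all 5 groups, while the replicates of this group correlated least, at 0.872. They can therefore understate the spread of unmethylated CREB1(A297V), here and in its other comparisons. The 2 groups share an array identifier, and a fit of those 4 arrays alone called 8 members higher and 0 lower. In that fit 7.65% of all 8-mers were called in either direction, and 32.0% of those calls were higher. Of the 21 calls, 5 held without each array in turn, the calls of aTTGCAAt and TTGCACac were each lost without 1 array, and the count was 8 without CREB1 replicate 2. Fitted on the authors' deposited scores, 1 member was higher and 1 lower, while 11.7% of all 8-mers were called, so the excess of called members was not present in those scores.

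The mutants were set against each other on both kinds of DNA. On unmethylated DNA protein and array identifier cannot be told apart. On methylated DNA, 9 of the 109 members were higher with CEBPB(V285A) and 4 lower, against a background of 6.75% higher and 5.49% lower over all 8-mers (5.59% and 6.70% without CpG). On unmethylated DNA 16 were higher and 6 lower, against 14.1% and 11.5% over all 8-mers and 8.21% and 14.9% without CpG. The member shares on methylated DNA, 8.26% higher and 3.67% lower, lay near both backgrounds. On unmethylated DNA 14.7% were higher, near the background of all 8-mers and above that of 8-mers without CpG, and 5.50% were lower, below both. The balance on unmethylated DNA depended on the scoring: after normexp background correction 11 were higher and 13 lower, with 24.5% of all 8-mers called. On log2 scores without scaling 30 were higher and 6 lower, with 31.6% of all called. On methylated DNA log2 scores gave 29 higher and 7 lower, with 30.6% of all called.

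TTGCACaa led both comparisons, higher with CEBPB(V285A) by 4.80 (SE 0.41, adjusted p = 4.82e-07) on methylated and by 4.54 (SE 0.41, adjusted p = 1.71e-06) on unmethylated DNA. On methylated DNA it was followed by TTGCACca, with Z-scores of 3.37 and 2.85 with CEBPB(V285A) against 1.02 and 0.74 with CREB1(A297V), a difference of 2.23 (SE 0.32, adjusted p = 0.000119). gTTGCAGc, aTTGCAGa and tgTTGCAG followed with differences of 1.42, 1.41 and 1.36, all with G at base 6. The lower words had differences of -2.72 (SE 0.41, adjusted p = 0.000213) for TTGCACac, -1.35 (SE 0.41, adjusted p = 0.0362) for aTTGCAAa, -1.12 (SE 0.27, adjusted p = 0.00944) for atTTGCAC and -1.10 (SE 0.34, adjusted p = 0.0399) for TTGCAAat. The arrays of the 2 proteins did not overlap in any of these 9 words, which largely follows from their choice as the largest called differences. The calls of aTTGCAAa and TTGCAAat were each lost in 6 of the 10 fits that leave out an array, and that of atTTGCAC in 4.

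On unmethylated DNA the words higher with CEBPB(V285A) after TTGCACaa were TTGCAAcc, aTTGCAGa, tgTTGCAG and TTGCAGca, with differences of 1.34, 1.33, 1.23 and 1.18. The largest difference the other way was that of TTGCACcc, at -1.19 and -1.06 with CEBPB(V285A) against 0.33 and 0.66 with CREB1(A297V), or -1.62 (SE 0.22, adjusted p = 4.26e-05). TTGCACac, tTTGCAAa, TTGCACtc and tTTGCAGt were lower with differences of -1.59, -1.36, -0.94 and -0.91. The order of the 2 mutants was thus opposite on TTGCACaa and TTGCACac, which differ in the last base, on both kinds of DNA. Of the 22 calls, 4 held without each array in turn, and 7 and 11 members were called without unmethylated CEBPB(V285A) replicates 1 and 2. Of the 13 calls on methylated DNA, 4 held, with 4 members called without methylated CEBPB(V285A) replicate 1, and 6 and 8 without methylated CREB1(A297V) replicates 1 and 2. The methylated arrays share an identifier, but the probe layout differs between the 2 proteins, so protein and layout cannot be told apart there. A fit of those 4 arrays alone called 16 members higher and 10 lower, near the 26.7% of all 8-mers called in that fit.

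No member contains a whole CpG, so M.SssI has a target only in the rest of the probe or where the edge of a member completes a CpG with the next base. With CEBPB(V285A), 13 of the 109 members were higher on methylated than on unmethylated DNA and 0 lower by limma, against a background of 3.84% and 3.73% over all 8-mers and of 5.03% and 1.53% among those without CpG. At an unadjusted p below 0.05 the counts were 28 and 2, against 12.6% and 12.2% of all 8-mers and 15.9% and 7.13% of those without CpG. The largest differences were 2.12 (SE 0.41, adjusted p = 0.00605) for TTGCACaa, 1.68 (SE 0.29, adjusted p = 0.00304) for gTTGCACa and 1.49 (SE 0.32, adjusted p = 0.00973) for TTGCACca. TTGCAAtg and TTGCAGaa followed with 1.38 and 1.22. gTTGCACa had Z-scores of 2.83 and 2.40 methylated against 1.02 and 0.86 unmethylated, and TTGCAAtg had 1.89 and 1.499 against 0.47 and 0.15. The arrays did not overlap in these 5 words, which largely follows from their choice as the largest called differences. None of the 13 calls held without each array in turn. Without methylated CEBPB(V285A) replicates 1 and 2, limma called 0 and 4 members, and without the unmethylated ones 1 and 2. It called 8 when either methylated, and 21 when either unmethylated, CREB1(A297V) array was left out. The adjusted p of TTGCACaa reached 0.121 across the fits that leave out an array.

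With CREB1(A297V), 21 members were higher on methylated DNA and 3 lower, against a background of 10.4% higher and 11.1% lower over all 8-mers and of 10.9% and 10.7% among those without CpG. The median difference of the members was 0.278 Z units, against 0.0209 over all 8-mers. aTTGCACa led with 2.08 (SE 0.41, adjusted p = 0.00178), followed by TTGCACaa with 1.86 (SE 0.41, adjusted p = 0.00419), TTGCAAaa with 1.71 (SE 0.35, adjusted p = 0.00270) and TTGCAGaa with 1.45 (SE 0.26, adjusted p = 0.000931). aTTGCAAg, the fifth, had Z-scores of 1.68 and 1.499 methylated against 0.073 and 0.49 unmethylated. The 3 lower members all hold TTGCAC and end in C: TTGCACcc at -0.96 and -0.94 methylated against 0.33 and 0.66 unmethylated, gTTGCACc at -0.50 and -0.34 against 0.43 and 0.36, and TTGCACtc at 0.11 and 0.032 against 0.96 and 0.75. Their differences were -1.45, -0.82 and -0.78, and that of TTGCACtc turned to 0.102 without spatial correction and to 0.175 in the authors' deposited scores. Of the 24 calls, 6 held without each array in turn, and 13 and 8 members were called without methylated CREB1(A297V) replicates 1 and 2.

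In both methylation comparisons array identifier and methylation cannot be told apart, and for CREB1(A297V) the probe layout differed as well. The probes were also split by their number of CpG, a split chosen after the values were seen. Each level was centred within its array but not divided by the robust SD of the 8-mers, and no test was run. That SD was 0.253 and 0.265 on methylated against 0.206 and 0.200 on unmethylated CEBPB(V285A) arrays. With CREB1(A297V) it was 0.199 and 0.197 methylated against 0.146 and 0.112 unmethylated. The part of this spread in the levels was not tested. Of the 1431 probes that hold a member, 196 have no CpG anywhere in the variable region. On these, the median log2 level was 0.28 with methylated and 0.091 with unmethylated CEBPB(V285A), and 0.16 with methylated and 0.063 with unmethylated CREB1(A297V). On the 318 probes with 3 or more CpG the same levels were 0.21 and 0.14 with CEBPB(V285A), and 0.031 and -0.033 with CREB1(A297V). The members' probes were thus higher on methylated arrays in both classes. Over all 3861 probes of the array without CpG the levels were 0.10 and -0.0094 with CEBPB(V285A), and 0.10 and 0.048 with CREB1(A297V). Over all 14580 probes with 3 or more CpG they were -0.016 and 0.036 with CEBPB(V285A), and -0.061 and -0.045 with CREB1(A297V). Over the whole array CpG-free probes were thus higher on methylated arrays with both proteins, and CpG-rich ones lower with CEBPB(V285A). With CREB1(A297V) the arrays overlapped on CpG-rich probes, at -0.065 and -0.058 methylated against -0.070 and -0.020 unmethylated. The part of CpG methylation in the members' differences was not tested. The 4 probes of TTGCACaa without CpG had 1.21 with methylated and 0.65 with unmethylated CEBPB(V285A).

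A CpG can also form where a member meets the next base of its probe. In 47 members that end in C or begin with G, the next base completed a CpG in 394 probes and did not in 839. The 2 classes can share probes, because a probe may hold 1 such member that completes a CpG and another that does not. The first class had median log2 levels of 0.28 with methylated and 0.17 with unmethylated CEBPB(V285A), and the second had 0.17 and 0.088. With CREB1(A297V) the levels were 0.084 and 0.022 in the first class, and 0.12 and 0.039 in the second. Methylated arrays thus lay above unmethylated ones in both classes for both proteins, with no test run on it. These levels too were not divided by the robust SD, which was wider on methylated arrays.

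Whether methylation changed the 2 mutants' binding unequally was tested by the interaction term of the same fit. Of the 109 members 2 were higher and 0 lower, against a background of 1.42% higher and 1.64% lower over all 8-mers and of 1.82% and 0.717% among those without CpG. The member share of 1.83% higher thus lay at the background. At an unadjusted p below 0.05 there were 7 higher and 9 lower, against 10.4% and 10.1% of all 8-mers and 12.1% and 6.55% of those without CpG. Both called words, TTGCACcc and TTGCACtc, hold TTGCAC and end in C. For TTGCACcc the interaction was 1.62 (SE 0.31, adjusted p = 0.0153), with Z-scores of -0.83 and -1.07 methylated against -1.19 and -1.06 unmethylated with CEBPB(V285A). For TTGCACtc it was 1.60 (SE 0.35, adjusted p = 0.0219), with 0.73 and 0.72 methylated against -0.11 and -0.063 unmethylated. Neither call held without each array in turn, with 0 and 1 called without unmethylated CEBPB(V285A) replicates 1 and 2. Limma called 0 when any 1 methylated array, and 4 when either unmethylated CREB1(A297V) array, was left out.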

How the data were processed

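Per the file headers, the deposited spot values are the intensity of the median signal and of the local background on a linear scale, not background-subtracted. The authors also deposited a score per 8-mer and array, a Z-score with reverse complements merged, whose formula is not given in the sources used here. Each log2 signal was centred on the median of a window of 15 by 15 spots, summarised as the median over the probes that hold an 8-mer or its reverse complement (at least 8), and scaled to a Z-score by 1.4826 times the median absolute deviation of the array. All 32896 8-mers of the 10 arrays were fitted with limma 3.58.1 in R 4.3.3 (lmFit, eBayes with a variance trend, two-sided, 5 residual degrees of freedom), with Benjamini-Hochberg adjustment over all 8-mers and calls at an adjusted p below 0.05, in 7 comparisons. The comparisons share arrays and are not independent. With 2 arrays per group an exact permutation test of a single 8-mer cannot go below p = 0.333, and the number of arrays limits the precision. On data simulated for CEBPB(V285A) against CREB1, 200 of 32896 8-mers were changed and every group had the same spread. Of these, 0%, 84% and 98% were called at differences of 1, 2 and 4 Z units, with 0, 7 and 4 unchanged 8-mers called. In the real comparison 2040 8-mers were called, among them TTGCACcc at a difference of -0.98. The simulated shares thus do not give the sensitivity of the real fits.

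The members, the compared lists and the tests were chosen with earlier results of these data known. Named members are the 3 that begin with TTGCA and end in AA, up to 5 with the highest mean in each group, and up to 5 called with the largest difference in each direction of each comparison, with those that begin with the half-site given as medians. The splits by start position, by CpG count and by the next base were chosen after the values were seen. The alternatives changed background correction, the filter on dim probes, normalization, scaling, spatial correction, the probes used, the score, the variance model, the replicate block and the arrays included.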

Additional observations from a re-analysis of the deposited data

Results flagged for a closer look

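The change on methylated DNA differed between the 2 mutants for 2 members by the test of the difference itself. These are 1.83% of the 109 members, at the background of 1.42% of all 8-mers and 1.82% of those without CpG, so the count says nothing particular to the members. For TTGCACcc the change with CEBPB(V285A) exceeded that with CREB1(A297V) by 1.62 Z units (limma adjusted p = 0.0153). Its changes, methylated minus unmethylated, were 0.17 with CEBPB(V285A) and -1.45 with CREB1(A297V). For TTGCACtc the excess was 1.60 (adjusted p = 0.0219), from changes of 0.81 with CEBPB(V285A) and -0.78 with CREB1(A297V). The change of TTGCACtc with CREB1(A297V) turned to 0.102 without spatial correction and to 0.175 in the authors' deposited scores. Across the fits that leave out an array the adjusted p reached 0.117 for TTGCACcc and 0.128 for TTGCACtc. Array identifier and methylation cannot be told apart here. No array could be tested as an outlier within a group of 2.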

How the results depend on the processing

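The numbers of members called are given in 1 order of comparisons: CEBPB(V285A) against CREB1, then CREB1(A297V) against CREB1, CEBPB(V285A) against CREB1(A297V) methylated and unmethylated, methylation of CEBPB(V285A), methylation of CREB1(A297V) and the interaction. They were 28, 21, 13, 22, 13, 24 and 2 of 109, with 6.20%, 18.9%, 12.2%, 25.6%, 7.57%, 21.6% and 3.07% of all 8-mers called. With log2 scores not divided by the spread they were 43, 9, 36, 36, 40, 41 and 10, with 13.4%, 10.9%, 30.6%, 31.6%, 30.5%, 30.3% and 8.14% of all called. With signal over background they were 14, 8, 9, 15, 5, 11 and 0, with 2.13%, 11.5%, 4.83%, 15.4%, 1.88%, 8.20% and 0.827% of all called. Without spatial correction they were 14, 14, 7, 10, 3, 7 and 0, with 1.95%, 10.7%, 4.74%, 14.8%, 1.36%, 8.15% and 0.842% of all. In the authors' deposited scores they were 9, 2, 14, 11, 7, 15 and 1, with 2.19%, 11.7%, 6.32%, 15.3%, 2.80%, 8.88% and 1.83% of all. Normexp gave 1 call in the interaction, with 2.88% of all called. Fits of the arrays with a shared identifier gave 8 for CREB1(A297V) against CREB1 and 26 for the mutants on methylated DNA. Leaving out 1 array gave 4 to 41, 8 to 26, 4 to 18, 7 to 28, 0 to 21, 8 to 27, 0 to 4 in the same order. Other alternatives moved each count by less than 1.5 times. The cause of these moves was not tested. CREB1 kept the lowest member median of the 5 groups in every scoring, at 0.0995 without probes that hold other cores and 0.0232 in the deposited scores.

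Deviations of same-numbered arrays correlated at -0.213 to 0.333 over 10 pairs of groups, so the replicate numbers did not pair the arrays throughout. The highest value, 0.333, was that of CREB1(A297V) and CREB1 on unmethylated DNA, which share an array identifier and are compared here. The methylated groups of the mutants, which also share an identifier, were at -0.00169. The replicate block gave 31, 25, 14, 23, 15, 26 and 2 calls. Of the 123 member calls over all comparisons, 122 kept their call and direction under the block, 114 under quantile normalization, 106 without dim probes, 104 without the variance trend, 90 without probes that hold other cores, 76 under normexp, 46 without spatial correction, 44 with signal over background and 36 in the deposited scores. The sign turned in 5 instances. gTTGCAGt, between the mutants on unmethylated DNA, was at -0.194 with signal over background. In the deposited scores TTGCACcc and gTTGCAGa were at -0.239 and -0.213 for CREB1(A297V) against CREB1. TTGCACtc, for methylation of CREB1(A297V), was at 0.102 without spatial correction and 0.175 in the deposited scores.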

Other observations

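The self-complementary members form a small set of their own. With A at base 6 and matching outer bases, 4 members read the same on both strands and differ only in the outer pair. They lie on 17 or 18 probes each, and part of those of gTTGCAAc also hold another bZIP core. gTTGCAAc had Z-scores of 2.48 and 2.84 with methylated CEBPB(V285A), 2.06 and 1.87 with methylated CREB1(A297V), 2.56 and 2.42 with unmethylated CEBPB(V285A), 2.23 and 2.42 with unmethylated CREB1(A297V) and 2.04 and 1.96 with CREB1. In the same order of groups cTTGCAAg had means of 0.84, 1.17, 1.51, 0.96 and 0.51. aTTGCAAt had 1.83, 1.75, 0.80, 1.67 and -0.12. tTTGCAAa had 0.70, 1.63, 0.33, 1.69 and 0.37. gTTGCAAc had the highest mean of the 4 in all 5 groups, and tTTGCAAa the lowest of the 4 with CEBPB(V285A) on both kinds of DNA. These words were chosen after their values were seen and carry no test of their own.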
